A study of Homo sapiens with 12 samples.

Results

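The genes described here encode the proteins of the mitochondrial ribosome, and they were taken by symbol as every gene named MRPL or MRPS with a number and at most a letter from A to C. Of the 22257 genes counted, 76 fit this rule, and all 76 passed the filter on low counts that left 14416 genes for testing. Each gene was represented by 1 RefSeq coding transcript, the one marked by the authors for 70 genes and the one with the highest total count for 6. RNA came from LN229, an established human glioblastoma line. The cells were kept for 24 h in RPMI with 10% dialyzed FBS, a serum freed of small molecules, after reaching 80% confluence. The 10 mM glc group received 10 mM glucose, the 1 mM glc + Acetate group received 1 mM glucose with 5 mM acetate, and the 1 mM glc group received 1 mM glucose alone, with 4 libraries per group. These groups follow the sample titles. The treatment text names both glucose levels with or without acetate, but no title names 10 mM glucose with acetate, and that condition was not analysed here. All libraries shared the line, the medium base, the serum and the time, and no genotype differed between them. LN229 is a line grown from a single tumour, so the results are those of 1 line.

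Mitochondria carry their own ribosome, which translates the few proteins encoded in mitochondrial DNA, all of them subunits of the respiratory chain and of ATP synthase. Its proteins are encoded in the nucleus, made in the cytosol and imported. Some of them descend from bacterial ribosomal proteins and others are found only in mitochondrial ribosomes, where they cover a ribosomal RNA that is much shorter than in bacteria. The symbols follow old assignments: MRPS30 and MRPS18A are named after the small subunit but sit in the large one, where they are called mL65 and mL66. MRPS36 has been reassigned to the 2-oxoglutarate dehydrogenase complex, where it is called KGD4. By present assignments the list held 49 proteins of the large subunit, 26 of the small subunit and MRPS36. By the unified names of the 75 ribosomal ones, 46 are shared with bacteria (names in u or b) and 29 are mitochondrial only (names in m). MRPS18A (mL66) and MRPS18B (mS40) count among the second kind by name, although both are related to bacterial S18.

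Library totals ran from 24.4 to 27.2 M counts (M, mega), so depth was close to equal. Glioma line markers fit the label, with VIM at 3685 to 5973 CPM (counts per megacount, scaled by TMM) and NES at 399 to 1082 CPM. GFAP, the astrocyte filament protein, was at 0.739 to 1.47 CPM. HBB was at 0 in all 12 libraries, and the endothelial markers PECAM1, VWF and CDH5 summed to at most 1.29 CPM. Of the 4 neuron markers 3 averaged over 5 CPM, and the set summed to 109 to 122 CPM at 10 mM glc, 151 to 178 CPM with acetate and 150.4 to 208 CPM at 1 mM glc. Of the 4 blood markers only CD68 averaged over 5 CPM, at 17.6 to 68.6 CPM, and the set summed to 18.003 to 22.02 CPM at 10 mM glc, 62.2 to 68.9 CPM with acetate and 54.4 to 64.6 CPM at 1 mM glc. The part of these markers in the results was not tested.

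A pair of libraries stood apart in the mitochondrial ribosomal protein genes. Replicate 1 of the acetate group was the highest of its group in 68 of the 76 genes, and replicate 3 of 1 mM glc was the highest of its group in 66. Their summed levels were 4840 and 5023 CPM, against 3984 to 4282 CPM in the other acetate libraries and 4006 to 4376 CPM in the other 1 mM glc libraries. Both libraries were higher in short transcripts across all genes: the correlation of a gene's deviation from its mean with its transcript length was -0.48 in each (Spearman, across genes, which are not independent). The 10 mM glc libraries leaned the other way, at 0.118 to 0.234. In the other 1 mM glc libraries it was -0.181 to 0.140, and in the other acetate libraries 0.00474 to 0.206. The mitochondrial ribosomal protein transcripts are short, with a median length of 1333 bases against 2886 bases for the genes tested, and 68 of the 76 lie under the median of the genes tested. Counts are therefore given below also without both libraries and after each library's trend over length and GC content had been removed.

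**Figure D1:**
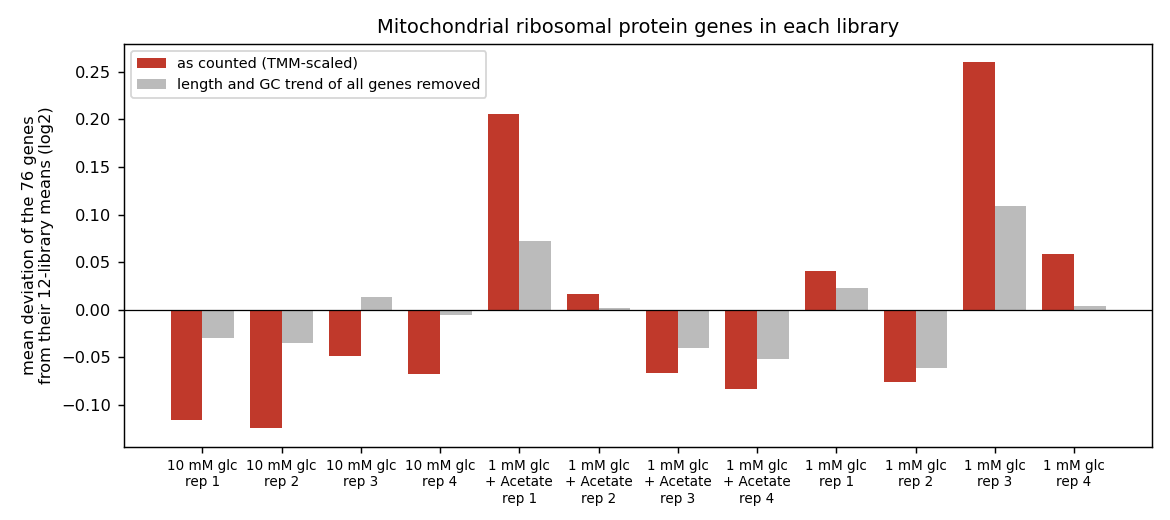
Mean deviation of the 76 genes from their 12-library means, in log2 units, for each library, as counted (red) and after removal of the length and GC trend (grey). Replicate 1 with acetate (0.206) and replicate 3 at 1 mM glc (0.260) lie highest, at 0.0722 and 0.109 after removal of the trend.

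All 76 genes were expressed in every group. Mean levels over the 12 libraries ran from 13.7 CPM for MRPS36 to 121 CPM for MRPS16, with a median of 51.6 CPM. Per kilobase of transcript the highest was MRPS24, the uS3m protein at the mRNA entry of the small subunit, at 137 CPM per kb. MRPL33, a small protein of the large subunit, followed at 119 CPM per kb. MRPL12, the stalk protein that helps recruit translation factors, stood at 110.0 CPM per kb. The lowest were MRPL42 at 3.55, MRPL50 at 6.49 and MRPL22 at 6.70 CPM per kb. These values depend on the annotated length, which is 15582 bases for the MRPL42 transcript and may differ from the RNA counted. The summed level of the 76 genes was 3931 ± 102 CPM at 10 mM glc, 4286 ± 391 CPM with acetate and 4435 ± 426 CPM at 1 mM glc (SD, n = 4 each), and the ranges overlapped, at 3826 to 4047 CPM at 10 mM glc, 3984 to 4840 CPM with acetate and 4006 to 5023 CPM at 1 mM glc. As a share of each library's total over the genes counted, they held 0.416 ± 0.0104% at 10 mM glc, 0.422 ± 0.0414% with acetate and 0.425 ± 0.0410% at 1 mM glc. This share scales each library by its total count instead of TMM.

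At 10 mM glucose, set against 1 mM glucose, 27 of the 76 genes were lower and 7 were higher in edgeR's quasi-likelihood test (adjusted p under 0.05). That is 44.7% of the members, where 67.5% of all genes tested were called, 33.7% being higher and 33.8% lower. The median log2 fold change was -0.16, against 0.00 over all genes tested, and the values ran from -0.75 (MRPS30) to 0.56 (MRPL35). Only 5 of the 76 were called and over 1.5-fold, where 31.5% of all genes were. In 31 genes all 4 values at 10 mM glc lay below all 4 at 1 mM glc, and in 3 they lay above. Over all genes 30.3% were apart downwards and 31.1% upwards, 61.5% in all. A total of 22 of the 27 lower genes, but 2 of the 7 higher ones (MRPL35 and MRPL49), were called in the same direction under every one of the 24 alternatives.

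The balance depended on scaling. When libraries were scaled by their total counts instead of TMM, the median of all genes moved to 0.14, and 23 members were lower and 17 higher, with 68.3% of all genes called. The median of the members was 0.16 below that of all genes under both scalings. A change of scaling shifts all genes of a library alike, so this gap could hardly move and is no check on the scaling. Without both libraries that stood apart 29 members were lower and 14 higher (median -0.08), and with the length and GC trend removed 29 were lower and 21 higher (median -0.04). Those are 56.6% and 65.8% of the members, and 72.7% of all genes were called under each of these settings. The count of higher genes also moved by over 1.5 times without some single libraries: it was 3 without replicate 1, 4 without replicate 2, 12 without replicate 3 and 3 without replicate 4 of 1 mM glc, and 3 without replicate 2 and 2 without replicate 4 of 10 mM glc. In these fits 62.8% to 67.4% of all genes were called.

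**Figure D2:**
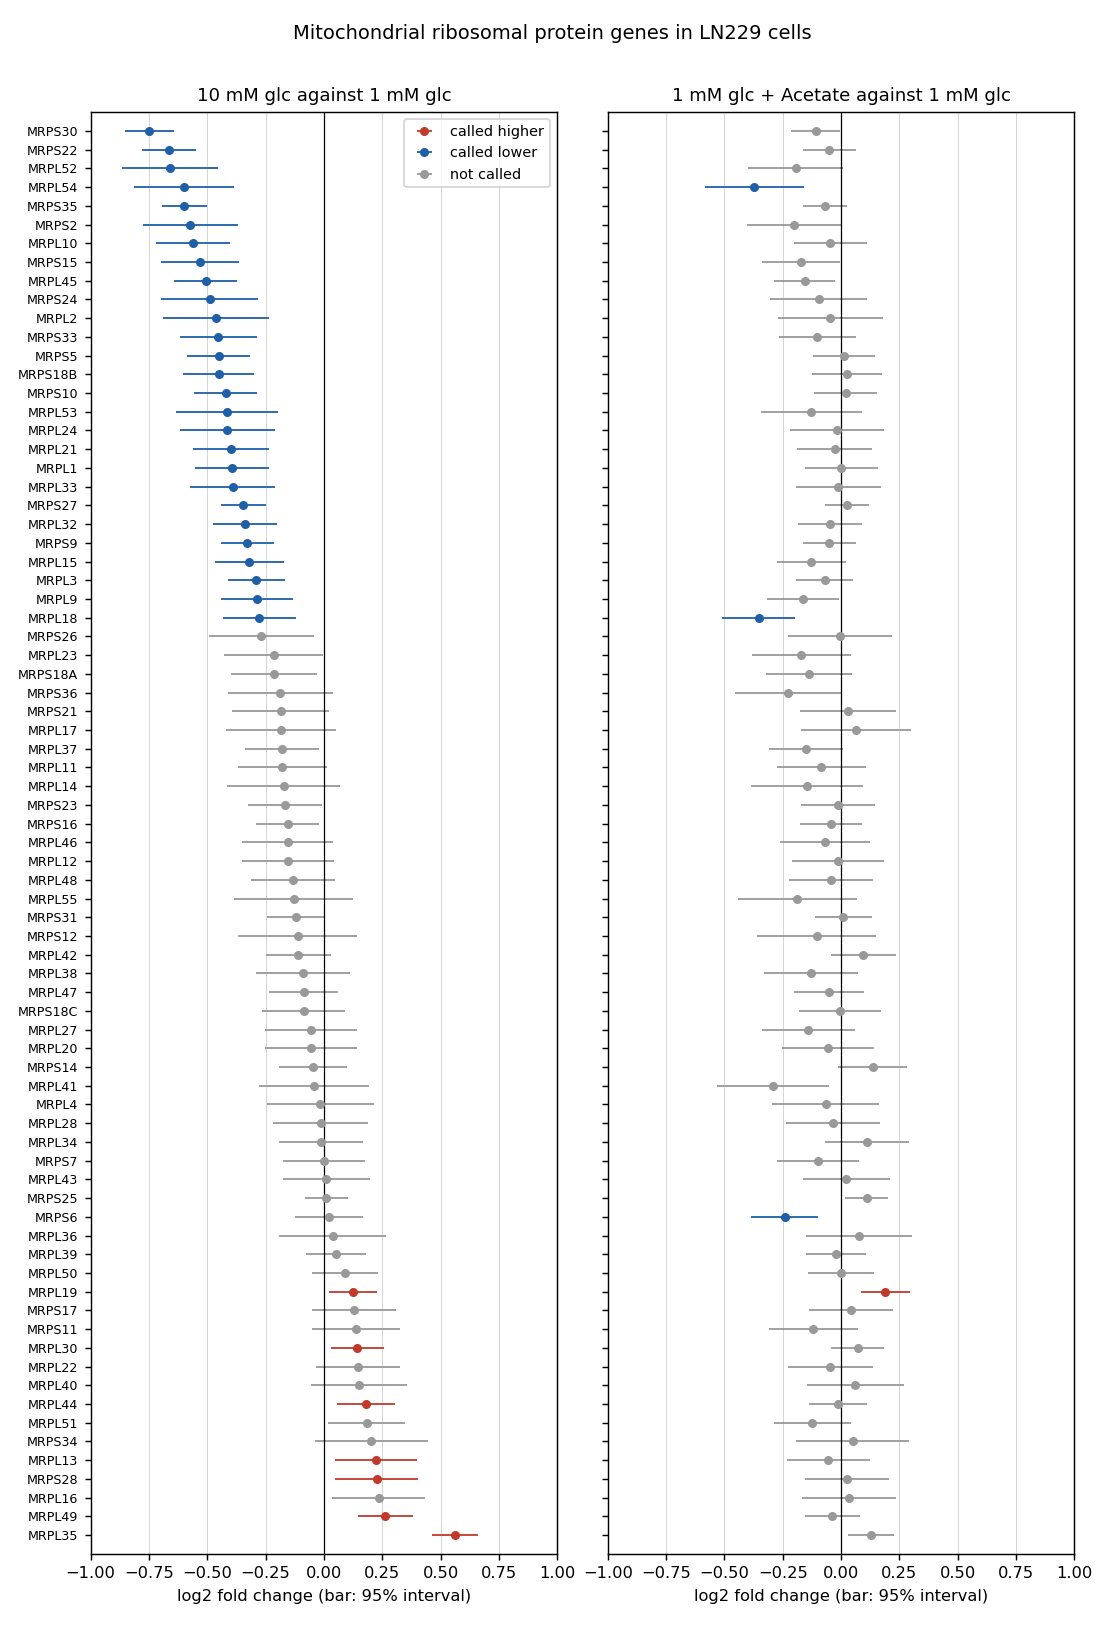
Log2 fold change (x axis; bars, 95% interval) of each of the 76 genes (rows, ordered by the left panel) for 10 mM glc against 1 mM glc and for acetate against 1 mM glc. On the left 27 genes were called lower (blue) and 7 higher (red); on the right 3 were called lower and 1 higher, and every estimate lies between -0.37 and 0.19.

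The largest decreases were in MRPS30, MRPS22 and MRPL52, whose promoters are shown because these genes lead the change. Each stretch is the 250 bases before the RefSeq start site in GRCh38.p14, 5′ to 3′ on the plus strand, with short motifs in capitals. The MRPS30 promoter, chr5:44808697-44808946, holds a pair of CCAAT boxes in reverse (ATTGG), which begin 139 and 55 bases before the start site. The MRPS22 promoter, chr3:139343744-139343993, holds the ETS core CCGGAAG and its reverse complement, a base apart, from 87 bases before the start. The MRPL52 promoter, chr14:22829637-22829886, holds a pair of YY1 motifs (AANATGGCG), from 98 and 64 bases before the start, and the NRF1 core GCATGCG from 175 bases before it. In the wider window searched below, which runs 50 bases past the start, MRPS30 also holds the YY1 motif and MRPL52 the ETS core. The motifs are matches of letters, and binding was not measured.
MRPS30: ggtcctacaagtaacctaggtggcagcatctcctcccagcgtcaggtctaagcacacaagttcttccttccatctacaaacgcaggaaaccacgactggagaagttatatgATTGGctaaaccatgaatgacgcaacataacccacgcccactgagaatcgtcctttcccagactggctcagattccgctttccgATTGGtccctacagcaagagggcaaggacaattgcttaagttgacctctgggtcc
MRPS22: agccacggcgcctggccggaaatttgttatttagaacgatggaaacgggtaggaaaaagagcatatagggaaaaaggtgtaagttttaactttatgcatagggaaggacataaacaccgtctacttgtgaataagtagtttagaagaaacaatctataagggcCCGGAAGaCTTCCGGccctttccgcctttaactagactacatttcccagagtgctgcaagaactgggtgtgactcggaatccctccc
MRPL52: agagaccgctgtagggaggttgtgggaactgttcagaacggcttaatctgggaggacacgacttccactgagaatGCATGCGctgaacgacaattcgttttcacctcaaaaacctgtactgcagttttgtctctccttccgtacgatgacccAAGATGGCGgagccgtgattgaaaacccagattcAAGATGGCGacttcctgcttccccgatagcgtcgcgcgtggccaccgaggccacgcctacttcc

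MRPS30, the large-subunit protein mL65, had 36.6, 38.3, 36.4 and 39.4 CPM in the 10 mM glc libraries, 59.8, 61.5, 55.8 and 57.5 CPM with acetate and 63.3, 63.1, 66.6 and 60.1 CPM at 1 mM glc. All 4 values at 10 mM glc lay below the other 8, and the acetate and 1 mM glc values overlapped. It fell to 0.595 of the 1 mM glc level (log2 fold change -0.75, SE 0.05, adjusted p = 1.31e-08). MRPS22, a small-subunit protein in which inherited mutations cause a mitochondrial disease of infancy, had 37.5, 37.5, 36.9 and 40.97 CPM in the 10 mM glc libraries, 63.2, 59.6, 57.7 and 53.4 CPM with acetate and 62.6, 59.9, 59.4 and 60.6 CPM at 1 mM glc. Again the 10 mM glc values lay below all others, with the acetate values spread around those at 1 mM glc (log2 fold change -0.67, SE 0.06, adjusted p = 1.34e-07). MRPL52, a large-subunit protein specific to mitochondria, had 28.2, 27.5, 28.7 and 28.4 CPM in the 10 mM glc libraries, 47.6, 36.8, 38.6 and 32.8 CPM with acetate and 46.5, 39.01, 51.7 and 41.1 CPM at 1 mM glc. The 10 mM glc values were tightly grouped and lay below the rest, and the highest values of the other groups were in the pair of libraries that stood apart (log2 fold change -0.66, SE 0.11, adjusted p = 6e-05). Without that pair the log2 fold changes of these 3 genes were -0.72 (adjusted p = 4.1e-11) for MRPS30, -0.68 (adjusted p = 2.28e-10) for MRPS22 and -0.58 (adjusted p = 5.34e-08) for MRPL52.

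MRPS35, of the small subunit, had 49.6, 48.4, 51.1 and 50.6 CPM in the 10 mM glc libraries, 76.2, 73.4, 69.1 and 69.1 CPM with acetate and 74.4, 75.9, 77.5 and 74.4 CPM at 1 mM glc. No value at 10 mM glc reached the other groups (log2 fold change -0.60, SE 0.05, adjusted p = 5.46e-08). MRPL54, of the large subunit, had 14.01, 14.9, 16.8 and 15.9 CPM in the 10 mM glc libraries, 21.03, 18.3, 16.6 and 16.2 CPM with acetate and 23.1, 19.9, 28.3 and 21.9 CPM at 1 mM glc. The 10 mM glc values lay below those at 1 mM glc and overlapped those with acetate (log2 fold change -0.60, SE 0.11, adjusted p = 0.000201). MRPL10, the stalk base protein to which MRPL12 is anchored, had 61.8, 58.2, 62.2 and 57.4 CPM in the 10 mM glc libraries, 99.6, 83.1, 80.6 and 79.6 CPM with acetate and 87.3, 79.8, 100.5 and 86.4 CPM at 1 mM glc. Its 10 mM glc values lay below all others (log2 fold change -0.56, SE 0.08, adjusted p = 2.23e-05), and MRPL12 itself, at 106 ± 2.76 CPM at 10 mM glc against 117 ± 20.5 CPM at 1 mM glc, was not called (log2 fold change -0.15, SE 0.10, adjusted p = 0.185; 95% interval -0.35 to 0.04). MRPS2, the small-subunit protein uS2m, had 33.4, 32.01, 37.6 and 31.6 CPM in the 10 mM glc libraries, 48.97, 42.05, 42.2 and 40.8 CPM with acetate and 48.4, 41.6, 61.9 and 48.2 CPM at 1 mM glc. Its groups at 10 mM and 1 mM glc did not overlap, with replicate 3 at 1 mM glc the highest (log2 fold change -0.57, SE 0.10, adjusted p = 0.000204).

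**Figure D3:**
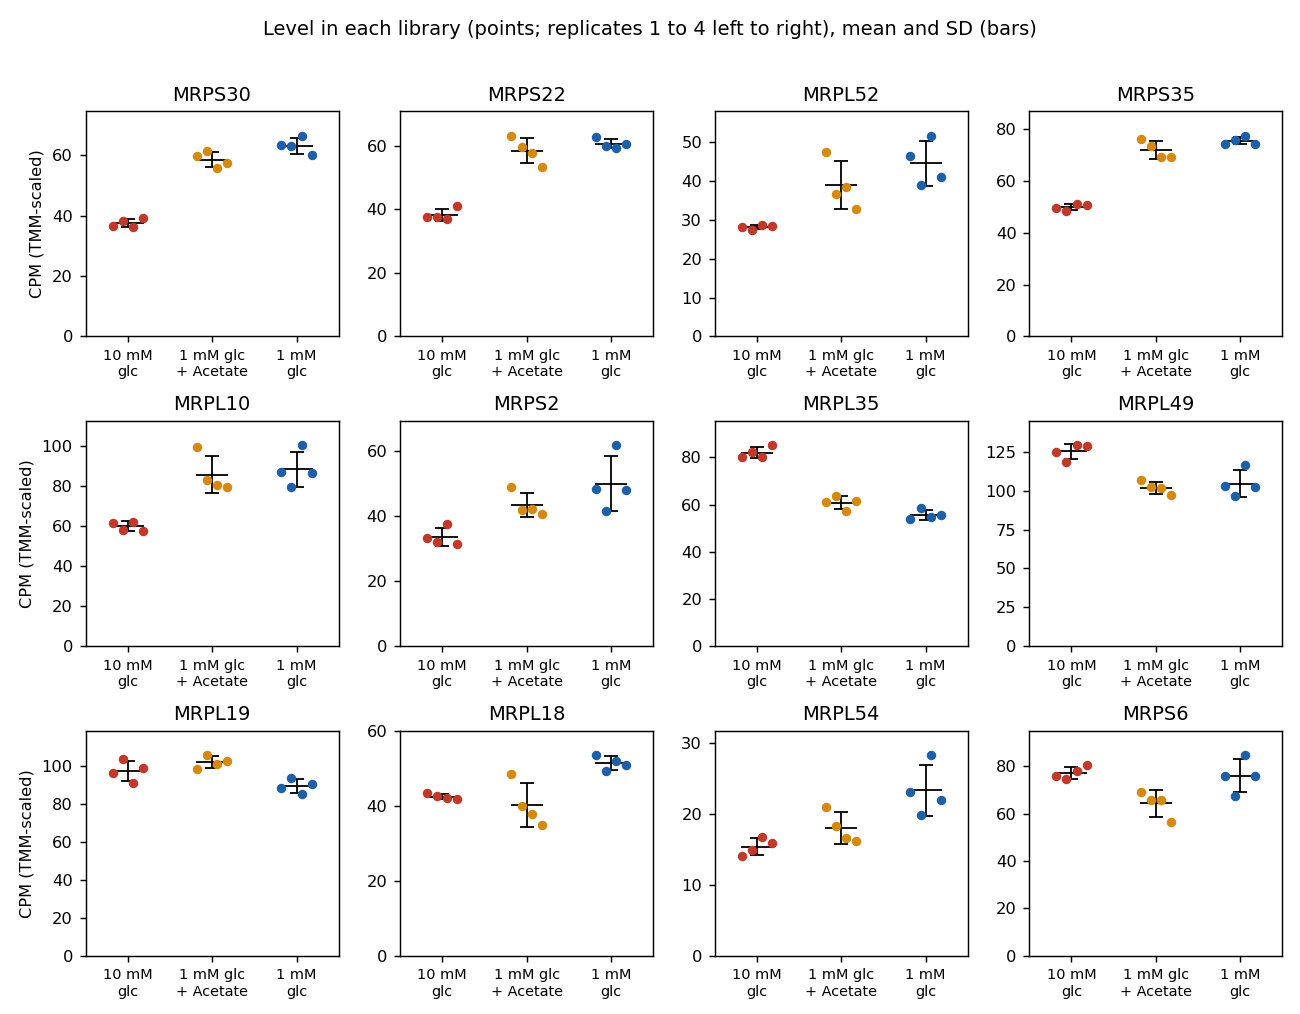
Level of 12 genes in each library (points, CPM scaled by TMM; replicates 1 to 4 from left to right) with the group mean and SD, for 10 mM glc, acetate and 1 mM glc. MRPS30, MRPS22, MRPL52, MRPS35, MRPL10 and MRPS2 are lower at 10 mM glc with no overlap with 1 mM glc, and MRPL35 and MRPL49 are higher.

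The other lower genes included MRPS24 (log2 fold change -0.49, adjusted p = 0.000908), MRPS18B (-0.45, adjusted p = 0.00012), MRPL33 (-0.39, adjusted p = 0.00183) and MRPL3 (-0.29, adjusted p = 0.000773), a protein that lies close to the peptidyl transferase centre. MRPL18, at 43.4, 42.7, 42.2 and 41.9 CPM in the 10 mM glc libraries and 53.7, 49.4, 52.1 and 51.03 CPM at 1 mM glc, had the smallest of the 27 decreases (log2 fold change -0.28, SE 0.08, adjusted p = 0.00692), and its groups did not overlap. The 15 lower genes not named ranged from -0.53 to -0.29. The call of MRPL18 was lost with library totals and with the length and GC trend removed (-0.07 (adjusted p = 0.26)), that of MRPL33 with the trend removed (-0.11 (adjusted p = 0.065)), and that of MRPL3 with library totals (-0.15 (adjusted p = 0.0505)).

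Of the 7 higher genes MRPL35, a bacterial-type protein of the large subunit, changed most. It had 80.4, 82.4, 80.2 and 85.2 CPM in the 10 mM glc libraries, 60.9, 63.6, 57.2 and 61.5 CPM with acetate and 53.9, 58.6, 54.7 and 55.6 CPM at 1 mM glc, so the 10 mM glc values exceeded all others by a wide gap. It was 1.47 times as high as at 1 mM glc (log2 fold change 0.56, SE 0.05, adjusted p = 1.58e-07), and 0.54 (adjusted p = 2.72e-09) with the length and GC trend removed. MRPL49, of the large subunit, had 125, 119, 129 and 129 CPM in the 10 mM glc libraries, 107, 102, 102 and 97.05 CPM with acetate and 103, 96.4, 116 and 102 CPM at 1 mM glc. The 10 mM glc values lay above the other 8, and replicate 3 was the highest at 1 mM glc (log2 fold change 0.26, SE 0.06, adjusted p = 0.00137). MRPL44, a protein of the ribonuclease III fold with a role in ribosome assembly, had 34.4, 33.2, 33.5 and 35.7 CPM in the 10 mM glc libraries and 30.2, 28.1, 31.9 and 30.5 CPM at 1 mM glc, with no overlap (log2 fold change 0.18, SE 0.06, adjusted p = 0.0199). Its call was lost without replicate 2 of 1 mM glc (adjusted p = 0.0615) or replicate 4 of 10 mM glc (adjusted p = 0.0597).

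MRPS28, the small-subunit protein bS1m, had 21.3, 20.4, 20.01 and 21.4 CPM in the 10 mM glc libraries and 15.8, 15.7, 21.1 and 18.4 CPM at 1 mM glc (log2 fold change 0.23, SE 0.09, adjusted p = 0.0391), and the groups overlapped in replicate 3 of 1 mM glc. Its call was lost without replicates 1, 2 or 4 of 1 mM glc or replicates 1, 2 or 4 of 10 mM glc, with adjusted p between 0.0526 and 0.125, and with the replicate number as a block (adjusted p = 0.0515). MRPL13, the large-subunit protein uL13m, had 44.6, 50.2, 47.3 and 50.5 CPM in the 10 mM glc libraries and 37.1, 38.02, 48.9 and 40.95 CPM at 1 mM glc (log2 fold change 0.22, SE 0.09, adjusted p = 0.0407), with the same overlap. Its call was lost without replicates 1, 2 or 4 of 1 mM glc, replicates 2, 3 or 4 of 10 mM glc or replicate 2 of the acetate group, with adjusted p between 0.0533 and 0.127, and with the replicate number as a block (adjusted p = 0.0735). MRPL19 (log2 fold change 0.13, SE 0.05, adjusted p = 0.0484) was at the threshold and was lost without any of these libraries: replicates 1, 3 and 4 of 1 mM glc, 2, 3 and 4 with acetate and 1, 2 and 4 of 10 mM glc (adjusted p from 0.0564 to 0.161). It was also lost with DESeq2 size factors (adjusted p = 0.0552), no filter (0.0941), only the 8 libraries compared (0.0769) and without the pair that stood apart (0.0645). The remaining higher gene was MRPL30 (log2 fold change 0.14, adjusted p = 0.0397), named after its values were seen. MRPL51 and MRPS34 were not called with all libraries (0.18, adjusted p = 0.0691, and 0.20, adjusted p = 0.161), and reached 0.26 (adjusted p = 4.98e-05) and 0.36 (adjusted p = 4.1e-05) without the pair that stood apart.

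By subunit, 16 of the 49 large-subunit genes were lower and 6 higher (median -0.13), and 11 of the 26 small-subunit genes were lower and 1 higher (median -0.18). Those are 44.9% and 46.2% of the genes. In this fit 67.5% of all genes tested were called, 33.7% higher and 33.8% lower. With the length and GC trend removed these counts were 16 lower and 16 higher in the large subunit (median 0.01) and 13 lower and 5 higher in the small subunit (median -0.12). With library totals they were 12 lower and 12 higher in the large subunit (median 0.01) and 11 lower and 5 higher in the small subunit (median -0.03). Of all genes 72.7% were called with the trend removed and 68.3% with library totals. Among genes with a name shared with bacteria 17 of 46 were lower and 5 higher, and among those with a mitochondrial name only 10 of 29 were lower and 2 higher, with a median of -0.16 in each. The 10 small-subunit genes with a mitochondrial name only, MRPS18B among them, had a median of -0.31, with 5 lower and none higher. No difference between these classes was tested, since members are not replicates.

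Several proteins of known function did not pass the test. MRPL11, of the factor-binding region, was at 67.7 ± 2.54 CPM at 10 mM glc and 76.6 ± 10.7 CPM at 1 mM glc (log2 fold change -0.18, adjusted p = 0.116, 95% interval -0.37 to 0.01). MRPS12, of the decoding centre, was at 25.7 ± 2.12 CPM at 10 mM glc and 27.8 ± 6.17 CPM at 1 mM glc (-0.11, adjusted p = 0.46, interval -0.37 to 0.14). MRPS7, of the small-subunit head, was at 74.1 ± 4.75 CPM at 10 mM glc and 74.03 ± 8.504 CPM at 1 mM glc (0.00, interval -0.18 to 0.18). MRPS16 was at 113 ± 1.78 CPM at 10 mM glc and 126 ± 11.1 CPM at 1 mM glc (-0.16, adjusted p = 0.055), and its 4 values at 10 mM glc lay below those at 1 mM glc. The 3 human homologs of bacterial S18 are MRPS18A in the large subunit, MRPS18B at another site of the small subunit and MRPS18C at the bacterial site. The log2 fold change was -0.21 for MRPS18A (adjusted p = 0.058), -0.45 for MRPS18B (adjusted p = 0.00012) and -0.09 for MRPS18C (adjusted p = 0.408). MRPS36, the dehydrogenase subunit, had 13.2 ± 1.03 CPM at 10 mM glc, 12.8 ± 2.42 CPM with acetate and 15.05 ± 1.59 CPM at 1 mM glc, and was not called in any of the 3 comparisons. It was called under 4 of the 24 alternatives for acetate against 1 mM glc, at the lowest adjusted p of 0.00889 without the pair that stood apart. MRPL50 (0.09, adjusted p = 0.287) and MRPL22 (0.15, adjusted p = 0.173), the low-level genes, did not either.

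Acetate at 1 mM glucose changed few of these genes, set against 1 mM glucose alone. MRPL19 rose, and MRPL54, MRPL18 and MRPS6 fell, which is 5.26% of the members where 13.7% of all genes tested were called, 6.65% higher and 7.09% lower. None was over 1.5-fold, where 2.64% of all genes were, the median was -0.05 against 0.00 over all genes, and the values ran from -0.37 to 0.19. In 2 genes all acetate values lay above those at 1 mM glc and in 1 below, where 7.35% and 8.20% of all genes did so, 15.6% in all. With only the 8 libraries compared the edgeR test called 0 members, where 7.45% of all genes were.

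MRPL19, a bacterial-type protein of the large subunit, had 98.4, 106, 101 and 103 CPM with acetate and 88.6, 93.99, 85.2 and 90.4 CPM at 1 mM glc. The acetate values lay above all 4 at 1 mM glc (log2 fold change 0.19, SE 0.05, adjusted p = 0.0284). MRPL18, the uL18m protein of the large subunit, had 48.5, 40.1, 37.8 and 34.97 CPM with acetate and 53.7, 49.4, 52.1 and 51.03 CPM at 1 mM glc. The acetate values lay below, with replicate 1 closest to the 1 mM glc group (log2 fold change -0.35, SE 0.08, adjusted p = 0.00979), and the change was -0.45 (adjusted p = 8.37e-06) without the pair that stood apart. MRPL54 (log2 fold change -0.37, SE 0.11, adjusted p = 0.0346) and MRPS6, a small-subunit protein with 69.3, 66.01, 65.9 and 56.3 CPM with acetate and 75.97, 67.6, 84.9 and 76.03 CPM at 1 mM glc (log2 fold change -0.24, SE 0.07, adjusted p = 0.0425), overlapped with 1 mM glc.

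Of the 24 alternatives, MRPL18 kept its call in 23, MRPL19 in 18, MRPL54 in 15 and MRPS6 in 10. MRPL19 lost it without replicates 1 or 4 of 1 mM glc or 2, 3 or 4 with acetate (adjusted p 0.0592 to 0.0882). MRPL54 lost it without replicates 1, 3 or 4 of 1 mM glc or 2, 3 or 4 with acetate (adjusted p 0.0547 to 0.113). MRPS6 lost it without any library but replicate 2 of 1 mM glc and replicate 1 with acetate (adjusted p 0.0574 to 0.139). The count of lower genes was 1 without replicate 1, 3 or 4 of 1 mM glc or replicate 2, 3 or 4 with acetate. Of all genes 15.9% were called without replicate 3 of 1 mM glc and 8.23% to 9.36% in the other of these fits. The count was 8 without replicate 1 with acetate, where 20.4% of all genes were called. The higher gene was lost without replicate 1 or 4 of 1 mM glc or replicate 2, 3 or 4 with acetate, where 8.23% to 9.36% of all genes were called. The median was -0.11 without replicate 1 with acetate and 0.02 without replicate 3 of 1 mM glc. Among the fits with 1 library left out, only leaving out replicate 3 of 1 mM glc turned its sign. Without both libraries that stood apart 8 genes were lower and 1 higher (median -0.05), and with the trend removed 8 were lower and 2 higher. Those are 11.8% and 13.2% of the members, where 25.8% of all genes were called without both libraries and 26.8% with the trend removed.

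Set directly against acetate, 10 mM glucose gave 26 lower and 7 higher members, 43.4% where 62.8% of all genes were called, 31.0% higher and 31.8% lower. Of the members 2 were over 1.5-fold, where 25.5% of all genes were. The groups were apart downwards in 26 members and upwards in 5, where 30.1% and 30.8% of all genes were, 61.0% in all. This comparison shares its 10 mM glc libraries with the first and its acetate libraries with the second, so the values are given side by side. It is also the test of whether the glucose and acetate changes differ. MRPS30 was -0.75 for 10 mM glc and -0.11 for acetate, each against 1 mM glc, and the difference was -0.64 (SE 0.05, adjusted p = 1e-07). MRPS22 was -0.67 for 10 mM glc and -0.05 for acetate, with a difference of -0.61 (SE 0.06, adjusted p = 4.23e-07). MRPL35 was 0.56 for 10 mM glc and 0.13 for acetate, with a difference of 0.43 (SE 0.05, adjusted p = 3.09e-06).

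MRPS35 (-0.53, adjusted p = 2.92e-07), MRPL10 (-0.52, adjusted p = 6.05e-05) and MRPS18B (-0.48, adjusted p = 8.88e-05) were next lowest against acetate. MRPL51 (0.31, adjusted p = 0.00568), MRPL49 (0.30, adjusted p = 0.00054), MRPL13 (0.28, adjusted p = 0.0147) and MRPS6 (0.26, adjusted p = 0.00607) followed MRPL35 among the higher genes. The call of MRPL13 was lost without replicate 3 with acetate (adjusted p = 0.0536). The call of MRPL44, higher by 0.19 (adjusted p = 0.0146), was lost without replicate 4 with acetate (adjusted p = 0.0533). MRPL42 was lower (-0.21, adjusted p = 0.0203). Its call was lost without replicate 1 of 10 mM glc (adjusted p = 0.0743), with library totals (0.235) and with the trend removed and the replicate block (0.0601). MRPL18 and MRPL54, lower in both other comparisons, did not pass here (0.08, adjusted p = 0.423, and -0.23, adjusted p = 0.0863). The median was -0.09 and turned to 0.01 with library totals (21 lower and 14 higher) and to 0.02 with the trend removed (25 lower and 22 higher). Without both libraries that stood apart 27 were lower and 19 higher, and without replicate 1 with acetate 23 were lower and 12 higher. Of all genes 68.7% were called without both libraries and 61.4% without replicate 1 with acetate, and 63.5% with library totals and 69.8% with the trend removed.

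Other lists of mitochondrial gene expression also held genes of both directions. Of the 7 mitoribosome proteins with other symbols 2 were lower at 10 mM than at 1 mM glc, 1 was higher and 4 did not pass (median -0.02; 3 higher and 2 lower without the pair that stood apart). With all libraries 42.9% of this list was called, where 67.5% of all genes tested were, and 72.7% without the pair. DAP3, the GTP-binding protein mS29, fell (147 ± 5.85 CPM at 10 mM glc and 201 ± 9.96 CPM at 1 mM glc; log2 fold change -0.45, SE 0.06, adjusted p = 7.44e-06). ICT1, a peptidyl-tRNA hydrolase built into the large subunit, fell as well (log2 fold change -0.46, adjusted p = 0.000349). PTCD3, the small-subunit protein mS39, rose (0.23, adjusted p = 0.000822), and its call was lost with the length and GC trend removed (0.09 (adjusted p = 0.224)).

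Of 12 mitochondrial translation factors 6 were lower and 3 higher (median -0.18). GFM2, which acts in ribosome recycling (-0.51, adjusted p = 1.54e-06), and the initiation factor MTIF2 (-0.43, adjusted p = 9.37e-07) fell, and the release factor MTRF1L rose (0.43, adjusted p = 2.51e-05). Of 23 assembly and rRNA modification factors 9 were lower and 6 higher (median 0.05), and 4 were lower and 11 higher with library totals. Their called share was 65.2% with TMM, where 67.5% of all genes tested were called. With library totals 68.3% of all genes were called. The assembly factors NGRN (-0.60, adjusted p = 5.29e-07), MPV17L2 (-0.74, adjusted p = 2.54e-05) and the pseudouridine synthase RPUSD4 (-0.46, adjusted p = 8.81e-06) fell. Of 17 mitochondrial tRNA synthetases 5 were lower and 5 higher (median -0.04), with WARS2 (-0.94, adjusted p = 6.97e-09) and RARS2 (-0.53, adjusted p = 4.93e-07) among the lower ones. The called share of the synthetases was 58.8%, again beside 67.5% of all genes tested.

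Of 17 genes of mitochondrial DNA transcription and maintenance 9 were lower and 6 higher (median -0.16; 4 lower and 7 higher with library totals). The called share with TMM was 88.2%, where 67.5% of all genes tested were called, and 68.3% with library totals. The RNA helicase SUPV3L1 had 25.6 ± 1.07 CPM at 10 mM glc, 41.7 ± 0.705 CPM with acetate and 47.6 ± 2.37 CPM at 1 mM glc (log2 fold change -0.90, SE 0.05, adjusted p = 1.94e-09). TOP1MT, the mitochondrial topoisomerase (-0.78, adjusted p = 5.39e-08), and PNPT1, the RNA-degrading partner of SUPV3L1 (-0.42, adjusted p = 8.64e-07), fell too. TFAM, which packages mitochondrial DNA and starts its transcription, rose (70.1 ± 3.88 CPM at 10 mM glc and 53.6 ± 3.34 CPM at 1 mM glc; log2 fold change 0.39, SE 0.06, adjusted p = 4.69e-05). With acetate SUPV3L1 fell (-0.19, adjusted p = 0.0264), and POLG2, the polymerase accessory subunit (0.24, adjusted p = 0.0468), and the tRNA synthetase IARS2 (0.16, adjusted p = 0.029) rose. These 3 calls were lost without several single libraries: SUPV3L1 and IARS2 without replicate 1 of 1 mM glc (adjusted p = 0.0865 and 0.0834) or replicate 2, 3 or 4 with acetate (at most 0.0738 and 0.0742), SUPV3L1 also without replicate 4 of 1 mM glc (0.0689), and POLG2 without any library but replicate 1 of 1 mM glc (0.0509 to 0.11). POLG2 was lower at 10 mM glc than at 1 mM glc (-0.22, adjusted p = 0.0173). This call was lost without replicate 1 of 1 mM glc (adjusted p = 0.0652) or replicate 3 of 10 mM glc (0.0563). Scaling by library totals ended the call as well (adjusted p = 0.351). Trend removal ended it too, by itself (adjusted p = 0.463) or combined with the replicate block (adjusted p = 0.496).

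The respiratory chain and ATP synthase subunits encoded in the nucleus join the products of the mitochondrial ribosome. Of 77 tested of 84 counted, 30 were lower and 6 higher at 10 mM glc (median -0.15), and 32 were lower and 15 higher without the pair that stood apart. With library totals 14 were lower and 12 higher. Called with all libraries and TMM were 46.8% of the 77, where 67.5% of all genes tested were. Of all genes 72.7% were called without the pair and 68.3% with library totals. COX7A2L (-1.07, adjusted p = 4.62e-09), which joins respiratory complexes, UQCRC2 of complex III (-0.52, adjusted p = 4.5e-07) and NDUFA4L2, low at 0.738 ± 0.239 CPM at 10 mM glc and 3.30 ± 0.578 CPM at 1 mM glc (-2.16, adjusted p = 3.21e-07), fell. Of the 77 genes of the cytosolic ribosome, 76 were lower and 0 higher in the edgeR test, with RPS26, named after its values were seen, the exception (0.23, adjusted p = 0.0702). Their median was -0.70, against -0.16 for the mitochondrial ribosome, and -0.51 against -0.04 with the length and GC trend removed. RPL3 (339.6 ± 16.8 CPM at 10 mM glc and 676 ± 52.3 CPM at 1 mM glc), RPL12 (73.3 ± 3.82 CPM at 10 mM glc and 147 ± 14.3 CPM at 1 mM glc) and RPL4 (700.0 ± 16.1 CPM at 10 mM glc and 1193 ± 92.2 CPM at 1 mM glc) had the smallest p. Their log2 fold changes were -0.99 for RPL3 (adjusted p = 1.18e-08), -1.0001 for RPL12 (adjusted p = 1.39e-07) and -0.77 for RPL4 (adjusted p = 1.56e-07). The difference between the lists was not tested. Acetate called 0 genes of the cytosolic ribosome and 0 of the respiratory chain, where 13.7% of all genes tested were called. At an unadjusted p under 0.05 these counts were 5 and 3, against 4088 of the 14416 genes tested. Without the pair that stood apart acetate called 12 of the cytosolic ribosome and 8 of the respiratory chain, all lower. In that fit 25.8% of all genes were called.

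**Figure D4:**
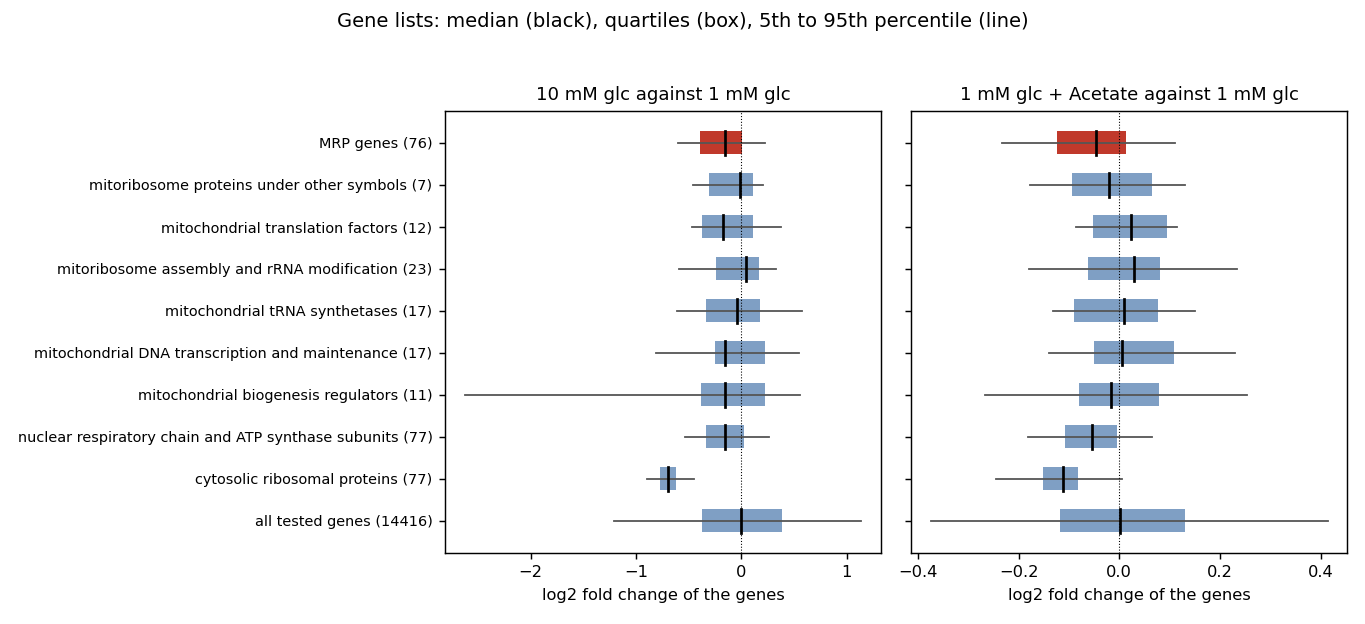
Log2 fold changes of the members and of 8 lists of related genes (number tested in brackets) beside all 14416 genes tested: median (black line), quartiles (box) and 5th to 95th percentile (thin line), for 10 mM glc against 1 mM glc and for acetate against 1 mM glc; the axes differ in scale. The cytosolic ribosome is displaced as a whole, at a median of -0.70, while the mitochondrial ribosome genes, at -0.16, spread over both signs.

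Regulators known from mitochondrial biogenesis moved in both directions: of 11 tested, 5 were lower and 4 higher at 10 mM glc (median -0.16; 3 lower and 4 higher with library totals). With TMM 81.8% of this list was called, where 67.5% of all genes tested were, and 68.3% with library totals. MYC, a driver of ribosome and mitochondrial gene expression, had 19.7, 18.98, 21.3 and 19.1 CPM in the 10 mM glc libraries, 97.05, 92.4, 92.5 and 93.3 CPM with acetate and 128, 113, 133 and 126 CPM at 1 mM glc. The groups did not overlap, and MYC was the one list member that also fell with acetate (log2 fold change -2.66, SE 0.06, adjusted p = 1.65e-13 for 10 mM glc; -0.41, adjusted p = 0.000408 for acetate). PPARGC1A, the coactivator of respiratory genes, had 1.78, 2.14, 1.49 and 1.35 CPM in the 10 mM glc libraries, 9.05, 10.03, 10.6 and 9.56 CPM with acetate and 11.9, 11.9, 6.67 and 10.3 CPM at 1 mM glc. It was low and below the other groups at 10 mM glc (log2 fold change -2.59, SE 0.19, adjusted p = 1.65e-08). NRF1, which binds promoters of respiratory genes, rose (35.95 ± 1.29 CPM at 10 mM glc and 24.2 ± 0.737 CPM at 1 mM glc; log2 fold change 0.57, SE 0.05, adjusted p = 1.36e-07), as did GABPA, an ETS factor with the same role (0.27, adjusted p = 0.00102). PPRC1, a coactivator related to PPARGC1A, did not pass (-0.16, adjusted p = 0.0944) and was lower against acetate (-0.26, adjusted p = 0.00921), a call lost with library totals (-0.16 (adjusted p = 0.0822)). The part of these regulators in the members' levels was not tested.

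The members' promoters share letters that the choice by symbol did not use. RefSeq promoters of GRCh38.p14, from 250 bases before to 50 after the start, were matched for 68 of the 76 genes, all but MRPL2, MRPL10, MRPL13, MRPL15, MRPL21, MRPL23, MRPL35 and MRPS28, and searched on both strands. CCGGAAG, an ETS core, was in 41.2% of them, against 10.7% of all 27305 promoters and 18.1% of the 9903 promoters of tested genes. AANATGGCG, the YY1 motif, was in 26.5%, against 3.37% and 6.66%. GCATGCG, the core of the NRF1 site, was in 10.3%, against 4.13% and 6.23%. The full NRF1 palindrome around this core was in 1.47%, against 1.36% and 2.18%. The E-box CACGTG, bound by MYC, was in 10.3%, against 7.43% and 10.0%, CCAAT in 29.4%, against 35.7% and 37.0%, and TATAAA in 4.41%, against 12.0% and 5.84%. Of the 23 genes with a promoter that were lower at 10 mM glc 8 held the ETS core and 9 the YY1 motif, of the 4 higher genes 1 and 0, and of the 41 not called 19 and 9. These are matches in a window and show no binding.

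Whether the counts used strand is not stated in the labels, and 30 of the 76 genes share exonic bases with another gene in GENCODE v29, 21 of them on the opposite strand. In 9 the overlap is with a transcript that was itself counted, so that reads of the pair could be exchanged. MRPL51 shares 220 bases, 17.8% of its length, with NCAPD2, which rose at 10 mM glc (log2 fold change 1.38, SE 0.07). MRPL49 shares 93 bases with SYVN1 (log2 fold change -2.03) and 97 with FAU (-0.51), both of which moved opposite to it. MRPS6 shares 176 bases on the same strand with SLC5A3 (0.54), MRPS18A shares 604 bases with RSPH9, which was too low to test, and MRPS7 shares 141 bases with MIF4GD (-0.29). Overlaps of MRPS16 with DNAJC9 (20 bases), MRPL9 with OAZ3 (157), MRPL47 with ACTL6A (124) and MRPL32 with PSMA2 (24) were the others. The part of these overlaps in the values was not tested. For 33 of the 76 genes the annotation also names pseudogenes, 70 in all, and the counts do not show how reads that match both were assigned. In the 20 genes with several coding transcripts the log2 fold changes of the transcripts differed by under 0.1, at most by 0.0752 in MRPL43. Transcripts of a gene can hold the same reads: both of MRPL42 had equal levels in every group (51.4 CPM at 10 mM glc). The closeness of their fold changes is therefore no independent check.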

How the data were processed

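RNA of LN229 cells was sequenced in 12 libraries, 4 per group by the sample titles, and the authors deposited raw counts per RefSeq transcript (whole numbers, 34917 transcripts). The build is hg19, per the submitters' processing notes. The sources used here do not name the aligner or counter, nor say whether strand was used. Transcripts of a gene were not added up. The 12 libraries were fitted together, with 1 mean per group, by the quasi-likelihood method of edgeR 4.0.16 under R 4.3.3, after filterByExpr and TMM. Benjamini-Hochberg adjustment ran over the 14416 genes tested, and genes with adjusted p under 0.05 are called. SE come from the F statistic, and each log2 fold change is first minus second group as written. The common biological coefficient of variation was 8.51%. Nothing says that the replicates were separate cultures. Their p-values measure only the spread between these libraries, which may be technical.

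The members and gene lists were chosen with earlier results of these data known. The patterns of the 2 lists described by symbol, cytosolic ribosome and respiratory chain, were written out after the counts had been seen. Per comparison the 5 called members of highest and the 5 of lowest fold change averaging at least 5 CPM are named, with the 3 highest and 3 lowest CPM per kilobase, a fixed set of members and, per list, the 3 called genes of smallest p in the glucose and acetate comparisons. For 10 mM against 1 mM glucose the deviations of same-numbered libraries from their group means correlated at 0.122 to 0.385 across genes. The values were over 0.1 in all 4 pairs. Whether the numbers pair these libraries cannot be told from this, since the labels do not say what a number marks. The reported test carries no block, and counts with the replicate number as a block are given at the end. Alternatives were library totals, DESeq2 size factors, the DESeq2 1.42.0 Wald test, limma-voom 3.58.1, no filter, a mean of 5 CPM, only the 8 libraries compared, a replicate block, each library left out, both libraries that stand apart left out, a spline (5 degrees of freedom) over transcript length and GC removed, with and without the block, and the transcript with the highest total. Transcript lengths and GC content were those of GENCODE v29, found by accession for all 76 members. MRPL30, RPS26, the partners in overlaps and the genes of opposite sign under alternatives were named after their values had been seen. The NRF1 core was added after the longer palindrome had been searched. A gene that the naming rule selects from the lists is not reported here.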

Additional observations from a re-analysis of the deposited data

Results flagged for a closer look

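In groups of 4 libraries the highest or lowest value was compared with the others by Dixon's test. Of 99 groups examined, over the named members and their sum, 8 passed, and by chance about 5% of groups would pass.

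With acetate, 4 members had replicate 1 far above the rest, as in the sums above: MRPS28 at 20.4 CPM against 17.1 to 17.6 CPM in the others, MRPS24 at 124 against 94.6 to 98.5 CPM, MRPS12 at 30.6 against 23.9 to 24.6 CPM and MRPS36 at 16.4 against 11.4 to 12.0 CPM. Leaving this library out raised the count of members lower with acetate to 8, and the share of all genes called to 20.4%.

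At 10 mM glc replicate 4 had MRPS22 at 41.0 CPM against 36.9 to 37.5 CPM. Replicate 3 had MRPL12 at 109.7 CPM against 104.0 to 104.5 CPM and MRPS12 at 28.9 against 24.5 to 24.9 CPM. Replicate 1 had MRPL22 at 21.2 CPM against 23.4 to 23.7 CPM. What sets these values apart was not tested.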

How the results depend on the processing

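Members called higher and lower and their median were recomputed under 24 alternatives. For 10 mM against 1 mM glucose, where 7 were higher and 27 lower, the higher count moved to 17 under scaling by totals, 14 without both libraries that stand apart, 21 after removal of the length and GC trend and 21 after that removal with the replicate block. Scaling by totals gave a median of -0.0143, trend removal -0.0418 and trend removal with the block -0.0417. Leaving out each library in turn gave 2 to 12 higher, 27 to 36 lower and medians of -0.22 to -0.08. For acetate the 1 higher and 3 lower became 2 and 1 under scaling by totals, 0 and 0 when fitted on 8 libraries, 1 and 1 with the replicate block, 1 and 8 without both libraries, 2 and 8 with the trend removed and 1 and 6 with that and the block; leaving out each library gave 0 to 1 higher, 1 to 8 lower and medians of -0.11 to 0.02. For 10 mM glucose against acetate the 7 higher became 14 under scaling by totals, 19 without both libraries, 22 with the trend removed and 22 with that and the block. Their median of -0.09 became 0.0108 under scaling by totals, 0.0196 with the trend removed and 0.0198 with that and the block. Leaving out each library gave 5 to 12 higher, 22 to 30 lower and medians of -0.14 to -0.06. The share of all genes called moved as well. With each library left out it was 62.8% to 70.1% for 10 mM against 1 mM glucose. For acetate it was 8.23% to 20.4%, and for 10 mM glucose against acetate 58.2% to 66.4%. With the trend removed and the block it was 71.5%, 24.1% and 68.2%, in that order. The cause of these moves was not tested. None of the named members that were called took the opposite sign under these alternatives. MRPL20, MRPL27, MRPL28 and MRPL34 for 10 mM against 1 mM glucose and MRPL47 for 10 mM against acetate, which were not called in the reported test, were called with the opposite sign under 2 alternatives each. Same-numbered deviations correlated at over 0.1 in all 4 pairs of 10 mM and 1 mM glucose but in 1 of the 8 pairs with acetate. The pairs with acetate ran from -0.457 to 0.193, and 5 of 12 libraries correlated best with their own number. These values do not settle whether the numbers pair the libraries. With the replicate number as a block 5 were higher and 27 lower for glucose, 1 and 1 for acetate, and 7 and 24 for 10 mM against acetate. In these fits 66.7%, 12.3% and 61.7% of all genes were called, in that order. For 10 mM against 1 mM glucose the block ended the calls of MRPS28 and MRPL13 and changed no other call among the members. At a biological coefficient of variation of 8.51% the median SE of a member was 0.0902 on the log2 scale for 10 mM against 1 mM glucose, which limits how small a change could be called.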
